A study of Schmidtea mediterranea with 36 samples.

Results

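Among the 26558 transcripts of the planarian Schmidtea mediterranea quantified in sorted cells, 4 were matched by the study's tables to the mitochondrial chaperones HSPA9 (dresden_comp424_c0_seq1), HSPD1 (dresden_comp141_c0_seq1 and dresden_comp6294_c0_seq1) and DNAJA3 (dresden_comp805_c0_seq1), and all 4 are described here. The match to these symbols, and not a measured value, chose them. The 2 HSPD1 transcripts are called the major HSPD1 transcript (dresden_comp141_c0_seq1) and the minor HSPD1 transcript (dresden_comp6294_c0_seq1) after their levels. All 4 transcripts passed the filter on low values (a mean of at least 1) in every comparison. The study had listed the minor HSPD1 transcript among transcripts that fell in these same X1 libraries, so its lower X1 levels are no independent evidence, whereas the other members came from a table on cct3A RNAi made with other libraries.

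The samples were cells of asexual planarians sorted by FACS on a nuclear dye (Hoechst) and a cytoplasmic dye (Calcein-AM). Every group shared this source and sort. The X1 gate takes stem cells in S, G2 and M phase, the X2 gate takes those in G0 and G1 together with their progeny, and differentiated cells fall into Xins. These were collected after 1, 7 and 30 days of starvation (1dS, 7dS and 30dS) with 4 replicates, which gave 9 groups and 36 libraries without a transgene or an RNAi treatment. X2 is a mixture by this gate, each replicate pooled planarians, and nothing says that replicates came from separate cultures, so p-values cover only the spread among these libraries, which may be partly technical. The deposited value is a normalized TPM, that is, transcripts per 1000000 divided by a factor for each library, and it is per length, so that levels of different transcripts can be set side by side.

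In mammals and yeast, proteins made in the cytosol enter the mitochondrial matrix unfolded. HSPA9 (mortalin), the matrix HSP70, pulls them through the import channel and helps them fold. DNAJA3 (TID1) is a J-domain protein, or HSP40, that stimulates the ATPase of HSPA9, and HSPD1 (HSP60) forms the chaperonin ring in which imported proteins fold. TRiC is the corresponding chaperonin of the cytosol. None of these roles was measured here.

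Library totals of normalized TPM ran between 638389.1 and 1935392, and 1733 to 10378 transcripts per library were listed at 0. The library of replicate 4 had the lowest total in 9 of 9 groups. Deposited values were also normalized within each population separately, so they share no set scale between populations. Populations were therefore compared after setting the total of every library to 1000000 (rescaled TPM). The labels of the populations were checked with 2 markers. Transcript cdk1, of a cell cycle kinase, (in rescaled TPM) was at 38.4 to 78.6 in X1, at 1.20 to 9.34 in X2 and at 0 to 0.27 in Xins, and bt (bent), of a muscle protein, was at 0.0825 to 1.83 in X1, 1.30 to 17.6 in X2 and 5.24 to 67.5 in Xins. The medians of both markers were ordered as the labels say.

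The major HSPD1 transcript was the most abundant of the 4 in every X1 and X2 library, whereas in Xins its mean was above that of DNAJA3 at 1dS and below it at 7dS and 30dS, and their order differed between libraries. Over the 12 libraries of a population, its median in rescaled TPM was 1916 for X1, 1192 for X2 and 177 for Xins, and it ranked between 85 and 162 among all transcripts of an X1 library. HSPA9 had medians of 908, 505 and 87.8 rescaled TPM in X1, X2 and Xins, and DNAJA3 had 402, 279 and 187 in the same order. The minor HSPD1 transcript was far lower, with 29.7, 12.1 and 3.41 rescaled TPM. In mean rescaled TPM, the major HSPD1 transcript ran 2303 ± 590.5 in X1 1dS, 1956 ± 508 in X1 30dS, 1492 ± 503 in X1 7dS, 1463 ± 846 in X2 1dS, 1207 ± 487 in X2 30dS, 1029.8 ± 473 in X2 7dS, 279.5 ± 119.8 in Xins 1dS, 171 ± 85.0 in Xins 30dS and 152 ± 69.9 in Xins 7dS (SD, n = 4 each). Of the neighbours in that order, X2 7dS and Xins 1dS did not overlap, and all the others overlapped. HSPA9 held the same order of populations, with means of 847 to 903 rescaled TPM for X1, 539.7 to 588 for X2 and 113 to 142 for Xins, and every pair of neighbours overlapped.

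**Figure D1:**
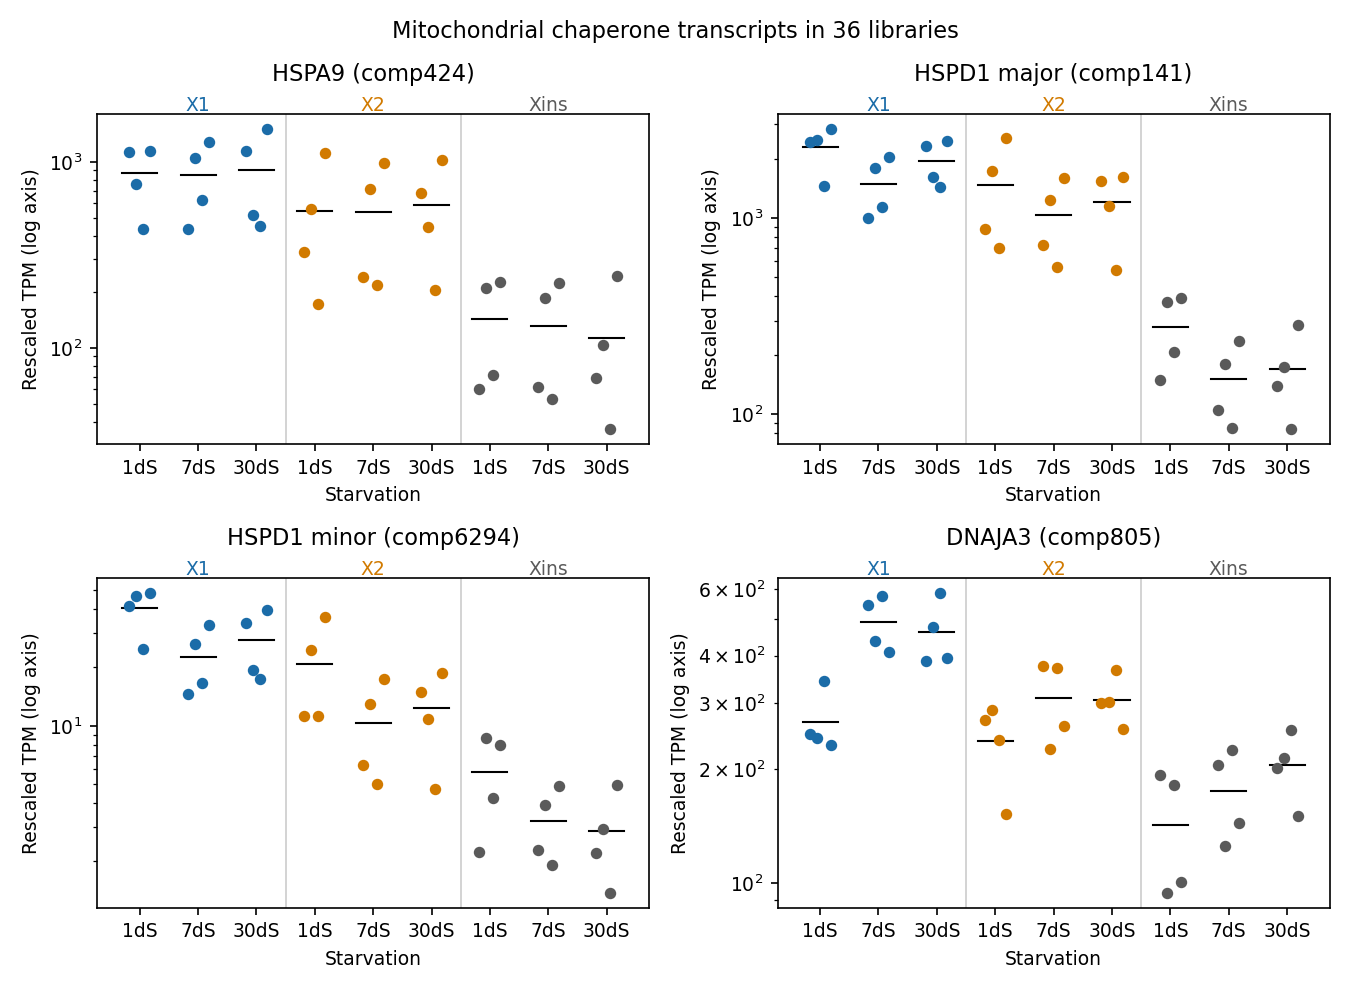
Rescaled TPM (log axis) of the 4 transcripts in each of the 36 libraries, by population and time of starvation, with points for libraries and bars for group means (n = 4). Both HSPD1 transcripts and HSPA9 sit lowest in the 12 Xins libraries, with medians of 177, 3.41 and 87.8 rescaled TPM, whereas DNAJA3 spans a narrower range, with medians of 402 in X1, 279 in X2 and 187 in Xins.

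The first question was how the transcripts of these chaperones changed in each population as starvation went on. Both HSPD1 transcripts were lower at 7dS than at 1dS in all 3 populations, the minor one was also lower at 30dS in all 3 and the major one at 30dS in Xins, and neither HSPA9 nor DNAJA3 passed the test at any time on the deposited scale. These were 10 calls among 36 tests (4 transcripts, 3 populations and 3 pairs of times) by limma on log2(normalized TPM + 1), at an adjusted p under 0.1 with Benjamini-Hochberg adjustment over all transcripts tested. All 10 were lost, with the direction kept, when the libraries of a population were rescaled to equal totals, as given below. Under quantile normalization every call of the major HSPD1 transcript was lost too. In bulk sorted cells, fewer cells of a type and less RNA per cell cannot be told apart.

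In X1, the major HSPD1 transcript was at 2261, 2936, 2100.2 and 2465 normalized TPM at 1dS, at 1219, 1485, 1184 and 1483 at 7dS, and at 2103, 1822, 1842 and 1775 at 30dS, for replicates 1 to 4. All 4 libraries at 7dS lay below all 4 at 1dS, while the libraries at 30dS lay between, with replicate 1 at 30dS just above the lowest library at 1dS. The mean fell to 1343 ± 164 normalized TPM at 7dS, against 2440.5 ± 362 at 1dS (SD, n = 4 each; log2 change -0.86 ± 0.19 (SE), limma adjusted p = 0.0225). Among all 13269 transcripts tested in X1, 6.92% were called lower at 7dS and 7.82% lay wholly below 1dS. At 30dS the difference from 1dS was -0.36 ± 0.19 on the log2 scale and was not called (adjusted p = 0.308).

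From 7dS onwards the major HSPD1 transcript was higher again in X1, without passing the test across all transcripts. All 4 libraries at 30dS exceeded all 4 at 7dS (log2 difference 0.49 ± 0.19), which 1.44% of transcripts tested also did, and the limma adjusted p was 0.938, in a comparison in which 0.00754% of transcripts passed in either direction. The exact two-sided permutation test of this single value gave p = 0.0286, the smallest that 4 libraries against 4 allow, and restates that the groups did not overlap (0.0857 after adjustment over the 36 tests of members). At equal totals the 2 groups overlapped (exact p = 0.257).

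The minor HSPD1 transcript also fell at 7dS in X1, at a far lower level. Unlike the major one, it stayed wholly below 1dS at 30dS, and its libraries at 30dS overlapped with those at 7dS. It was at 38.3, 55.3, 36.1 and 42.4 normalized TPM at 1dS, at 17.9, 21.9, 17.2 and 24.0 at 7dS, and at 30.7, 21.9, 22.5 and 28.6 at 30dS. Every library at 7dS and at 30dS was below every library at 1dS, as was so for 7.82% and 6.58% of all transcripts tested. It fell by 1.04 ± 0.19 on the log2 scale at 7dS (adjusted p = 0.00879) and by 0.71 ± 0.19 at 30dS (adjusted p = 0.0484), where 4.36% of transcripts were called lower. The call at 30dS was lost without replicate 2 or replicate 3 of X1 30dS (adjusted p 0.116 to 0.139).

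In X2, the major HSPD1 transcript was at 1163, 1881, 1354 and 2068 normalized TPM at 1dS, at 724, 1035, 675 and 1123 at 7dS, and at 1159, 1147, 665 and 1083 at 30dS. The groups at 7dS and at 30dS lay wholly below 1dS, as was so for 5.92% and 7.03% of all transcripts tested in X2. The highest values of the major HSPD1 transcript in these groups, 1123 and 1159, lay close to its lowest at 1dS, 1163. The change was -0.86 ± 0.29 on the log2 scale at 7dS (adjusted p = 0.0839), where 6.79% of transcripts were called lower, and this call was lost without any one of 6 of the 8 libraries (replicates 2, 3 and 4 of X2 1dS and replicates 1, 2 and 3 of X2 7dS; adjusted p 0.106 to 0.185). At 30dS it was -0.67 ± 0.29 and was not called (adjusted p = 0.147).

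In this population the minor HSPD1 transcript was at 14.8, 26.5, 21.8 and 29.7 normalized TPM at 1dS, at 6.21, 10.8, 6.02 and 12.3 at 7dS, and at 11.3, 10.8, 5.81 and 12.7 at 30dS. No library at 7dS or 30dS reached the lowest at 1dS, as was so for 5.92% and 7.03% of all transcripts tested. It fell by 1.32 ± 0.30 on the log2 scale at 7dS (adjusted p = 0.0204) and by 1.12 ± 0.30 at 30dS (adjusted p = 0.0291), beside 8.19% of transcripts called lower at 30dS. The stem cell marker cdk1 was also lower in X2 at the later times, with mean normalized TPM of 9.72, 2.01 and 2.98 at 1dS, 7dS and 30dS, while bt was at 5.93, 7.23 and 7.92. The part of these markers in the HSPD1 values of X2 was not tested.

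In Xins, where both transcripts were lowest, the major HSPD1 transcript was at 244, 339, 295 and 346 normalized TPM at 1dS, at 109, 139, 98.5 and 151 at 7dS, and at 140.4, 162, 123 and 187 at 30dS. No library of the later times reached the lowest at 1dS, as was so for 5.89% of all transcripts tested at 7dS and 6.04% at 30dS. It fell to 124 ± 24.7 at 7dS and to 153 ± 27.7 at 30dS, against 306 ± 47.4 normalized TPM at 1dS (SD, n = 4 each). The log2 changes were -1.30 ± 0.21 at 7dS (adjusted p = 0.0130) and -1.0 ± 0.21 at 30dS (adjusted p = 0.0248), and 3.06% and 3.85% of transcripts were called lower at these times.

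The minor HSPD1 transcript was at 3.62, 7.85, 6.06 and 7.05 normalized TPM at 1dS in Xins, at 2.37, 2.99, 2.21 and 3.10 at 7dS, and at 2.21, 2.73, 2.01 and 3.23 at 30dS. Both later groups lay wholly below 1dS, as was so for 5.89% and 6.04% of all transcripts tested. With values this close to the pseudocount of 1, the log2 changes understate the fold. They were -0.93 ± 0.22 at 7dS (adjusted p = 0.0468) and -0.98 ± 0.22 at 30dS (adjusted p = 0.0314). The call at 7dS was lost without replicate 2 or 3 of Xins 1dS or replicate 1 or 3 of Xins 7dS (adjusted p 0.111 to 0.130), and the call at 30dS without replicate 1 of Xins 30dS (adjusted p = 0.110). The muscle marker bt had means of 37.6, 24.5 and 15.7 normalized TPM at 1dS, 7dS and 30dS in Xins, and cdk1 was at 0.31 at most in these libraries. The part of either in the HSPD1 values was not tested.

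As deposited, HSPA9 was lower on average at both later times in every population, without a call, and the sign of its change turned in X2 at equal totals (0.01 at 7dS and 0.21 at 30dS) and in X1 and X2 under quantile normalization. In X1 it was at 1046, 900.0, 628 and 994 normalized TPM at 1dS, at 536, 871, 644 and 931 at 7dS, and at 1041, 582, 585 and 1077 at 30dS. The groups overlapped widely, since libraries of a single group differed more than the group means did. The log2 changes from 1dS were -0.27 ± 0.29 at 7dS and -0.16 ± 0.29 at 30dS in X1, and -0.41 ± 0.44 and -0.25 ± 0.44 in X2.

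In X2, HSPA9 was at 434, 608, 334 and 911 normalized TPM at 1dS, at 238, 596, 263 and 697 at 7dS, and at 512, 448, 253 and 689 at 30dS. In Xins it was at 98.2, 192, 103 and 201 at 1dS, at 63.9, 142, 61.7 and 142 at 7dS, and at 69.0, 96.7, 53.4 and 159 at 30dS. Within each of these groups replicates 2 and 4, or 1 and 4 in the case of X2 30dS, were the higher libraries. In Xins the log2 change was -0.57 ± 0.41 at 7dS (adjusted p = 0.554) and -0.69 ± 0.41 at 30dS (adjusted p = 0.442). Same-numbered libraries of Xins 1dS and 7dS deviated together (r 0.44 to 0.704). Only 1 of 4 libraries at 1dS correlated best with its own number at 7dS, so it is uncertain whether the numbers pair these libraries. With the replicate number as a block, the change of HSPA9 at 7dS was -0.57 ± 0.15 and was called (limma adjusted p = 0.0258). In that fit 14.1% of transcripts were called lower.

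DNAJA3, the partner of HSPA9, was not called on the deposited scale in any population. In X1 it was at 229, 286, 496 and 203 normalized TPM at 1dS, at 668, 362, 595 and 298 at 7dS, and at 352, 537, 754 and 284 at 30dS. Replicate 3 at 1dS was above libraries of both later groups, and the other replicates at 1dS were at most at 286, beside lowest values of 298 at 7dS and 284 at 30dS. The log2 differences were 0.67 ± 0.38 at 7dS (adjusted p = 0.310) and 0.65 ± 0.38 at 30dS (adjusted p = 0.362).

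In X2, DNAJA3 was at 357, 312, 463 and 124 normalized TPM at 1dS, at 372, 190.0, 446 and 183 at 7dS, and at 226, 301, 449 and 172 at 30dS. In Xins it was at 315, 85.9, 259.9 and 89.3 at 1dS, at 213, 96.8, 260.0 and 92.2 at 7dS, and at 202, 199, 371 and 98.6 at 30dS. The groups of each population covered nearly the same range. The differences from 1dS were -0.04 ± 0.44 and -0.07 ± 0.44 in X2, and -0.09 ± 0.54 and 0.31 ± 0.54 in Xins, on the log2 scale. No member passed the test between 30dS and 7dS in X2 or Xins, where 0.127% and 0.141% of all transcripts did.

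**Figure D2:**
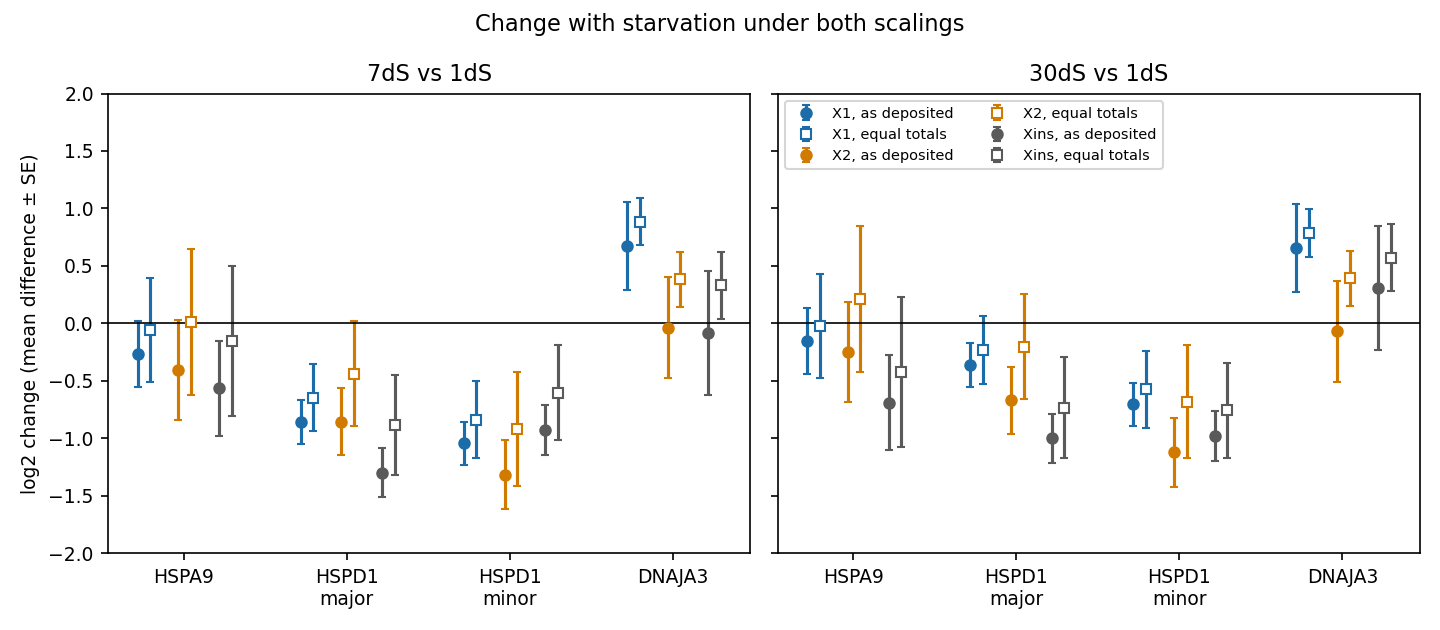
Log2 change ± SE (limma) of each transcript at 7dS and 30dS against 1dS in X1, X2 and Xins, with filled points for normalized TPM as deposited and open points for libraries rescaled to equal totals. Both HSPD1 transcripts lie below 0 in every panel on both scales, and the open points lie above the filled ones, as with -0.65 against -0.86 for the major HSPD1 transcript in X1 at 7dS.

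The size of these changes depended on how libraries were scaled. When the 12 libraries of a population were rescaled to equal totals, 2 of the 36 tests passed, both for DNAJA3 in X1, and the 10 calls of HSPD1 were lost. The median of all transcripts also moved, by scaling, to 0.20 (log2) at 7dS in X1, 0.36 in X2 and 0.38 in Xins, against medians of 0.04, 0.05 and 0.05 as deposited. Relative to that median, the major HSPD1 transcript in X1 at 7dS was at -0.85 with equal totals and -0.89 as deposited, the minor one at -1.04 and -1.08, and DNAJA3 at 0.69 and 0.64, so that the distance of each from the bulk of transcripts changed little while its spread and its adjusted p did.

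With equal totals, the major HSPD1 transcript changed by -0.65 ± 0.29 in X1, -0.44 ± 0.46 in X2 and -0.88 ± 0.44 in Xins at 7dS on the log2 scale (adjusted p 0.279, 0.586 and 0.331), and the minor one by -0.84 ± 0.33, -0.92 ± 0.49 and -0.60 ± 0.41 (adjusted p 0.212, 0.271 and 0.477). Some signs turned on that scale, for HSPA9 in X2 (0.01 at 7dS and 0.21 at 30dS) and for DNAJA3 in X2 (0.38 and 0.39) and in Xins at 7dS (0.33). Over all transcripts the split of calls moved as well, to 500 higher and 282 lower in X1 at 7dS with equal totals, against 898 higher and 918 lower as deposited. At 30dS in X1 it was 394 and 229 against 721 and 578, in X2 1501 and 362 against 1434 and 1019 at 7dS and 2314 and 413 against 1875 and 1229 at 30dS, and in Xins 728 and 103 against 349 and 520 at 7dS and 848 and 162 against 563 and 654 at 30dS.

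DNAJA3 in X1 was at 247, 243, 344 and 232 rescaled TPM at 1dS, at 546, 438, 574 and 409 at 7dS, and at 387, 476, 586 and 394 at 30dS. On this scale no library of the later times overlapped with 1dS, and replicate 3 was the highest of its group at every time. DNAJA3 rose by 0.89 ± 0.21 on the log2 scale at 7dS (limma adjusted p = 0.0373) and by 0.79 ± 0.21 at 30dS (adjusted p = 0.0655), where 3.71% and 2.93% of transcripts were called higher with equal totals.

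Within groups, the members moved with the library totals and in different directions. The 2 libraries of highest total in a group had lower HSPA9 than the other 2 in 9 of 9 groups, on both scales, and higher DNAJA3 in 9 of 9 groups as deposited and in 6 of 9 after rescaling. The major HSPD1 transcript was lower in those libraries in 6 of 9 groups as deposited and in 8 of 9 after rescaling, and the minor one in 8 of 9 on both scales. The library with the highest and the library with the lowest HSPA9 of a group were also those of the major HSPD1 transcript in 9 of 9 groups. The highest value of a group exceeded its lowest by 2.62 to 6.64 times for HSPA9, 1.72 to 3.62 times for the major HSPD1 transcript, 1.94 to 3.98 times for the minor one and 1.4 to 2.05 times for DNAJA3, in rescaled TPM. Rescaled TPM are divided by the library total, so lower rescaled values in libraries of high total are partly built in. Deposited values carry that total as a factor, so higher deposited values there, as for DNAJA3, are partly built in as well. The part of the library total in any of the comparisons was not tested.

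**Figure D3:**
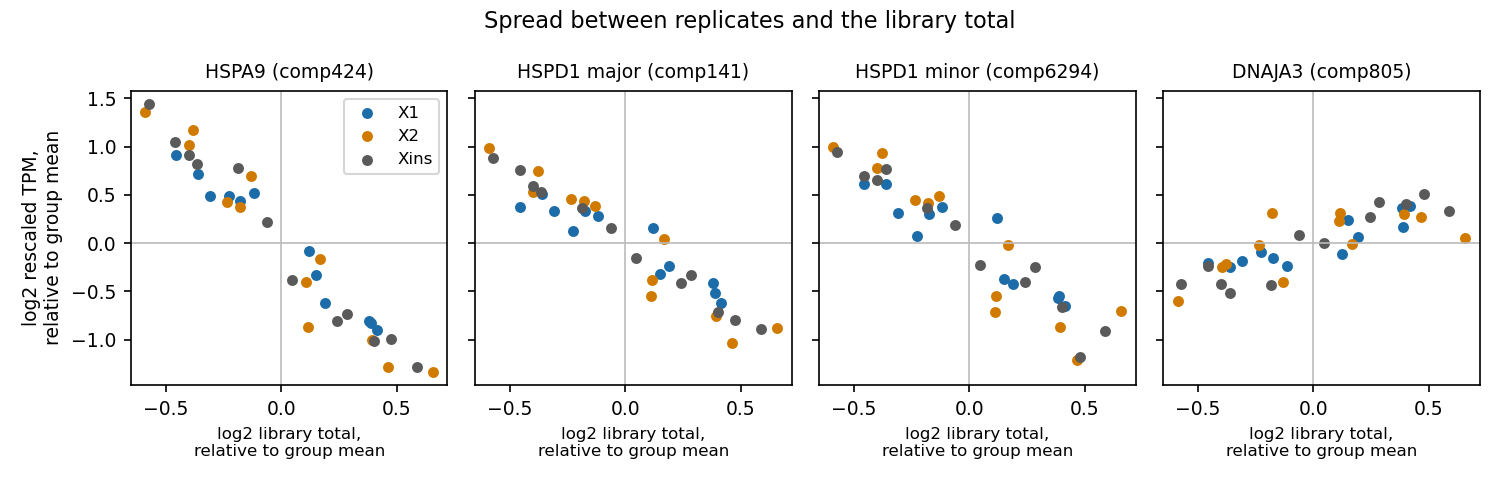
Log2 rescaled TPM of each member against the log2 total of normalized TPM in the 36 libraries, both relative to the mean of the library's group. HSPA9 and both HSPD1 transcripts decline as the total goes up and DNAJA3 goes up with it, as in the 9 of 9 groups in which the 2 libraries of highest total had the lower HSPA9. Rescaled TPM are divided by the total, so a decline is partly built in.

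The second question was how the populations differed at a given time. The 2 HSPD1 transcripts and HSPA9 were several times higher in X1 than in Xins at every time, DNAJA3 was higher by a smaller factor, and X2 lay between. Of 36 tests (4 transcripts, 3 pairs of populations and 3 times), 17 passed an adjusted p under 0.01 in limma on log2(rescaled TPM + 1), all of them higher in X1 or X2 than in Xins. They were 11 of 12 between X1 and Xins, 6 of 12 between X2 and Xins and 0 of 12 between X1 and X2. With the replicate number as a block, 7 of 12 passed between X1 and X2. The muscle marker bt ran the other way, as given above.

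The major HSPD1 transcript was at 2445, 2492, 1453 and 2821 rescaled TPM in X1 and at 149, 372, 207 and 389.7 in Xins at 1dS. Every X1 library was above every Xins library at this and both later times. The fold, on the scale of rescaled TPM + 1, was 8.61 at 1dS, 10.1 at 7dS and 12.2 at 30dS (log2 differences 3.11 ± 0.42, 3.34 ± 0.40 and 3.61 ± 0.40, adjusted p = 1.58e-05, 5.66e-06 and 4.57e-06). Of all transcripts tested, 16%, 14.3% and 15.3% were called higher in X1 than in Xins at 1dS, 7dS and 30dS. At these times 18.4%, 15.2% and 15.9% of all transcripts lay wholly above Xins in X1.

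HSPA9 was at 1131, 764, 435 and 1138 rescaled TPM in X1 and at 60.2, 211, 71.9 and 226 in Xins at 1dS, again without overlap at any time. It was 2.74 ± 0.57 higher in X1 at 1dS on the log2 scale, 2.84 ± 0.59 at 7dS and 3.14 ± 0.62 at 30dS (adjusted p = 0.000684, 0.000826 and 0.000587). For the minor HSPD1 transcript, X1 was higher by 2.70 ± 0.43, 2.47 ± 0.39 and 2.89 ± 0.42. Its X1 libraries spanned 14.7 to 48.6 rescaled TPM over the 3 times, and its Xins libraries 1.37 to 8.61.

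Against Xins, the differences of DNAJA3 were smaller than those of the other members at every time, without a test of that contrast. It was at 247, 243, 344 and 232 rescaled TPM in X1 and at 193, 94.3, 182 and 101 in Xins at 1dS, with a log2 difference of 0.96 ± 0.29 just short of the threshold (adjusted p = 0.0101). It passed at 7dS (1.51 ± 0.24, adjusted p = 9.25e-05) and at 30dS (1.17 ± 0.19, adjusted p = 0.000157). The call at 30dS was lost on normalized TPM as deposited (adjusted p = 0.0257), which were not scaled across populations. In mean rescaled TPM the order was 492 ± 80.3 in X1 7dS, 461 ± 92.8 in X1 30dS, 308 ± 75.8 in X2 7dS, 306 ± 45.5 in X2 30dS, 266 ± 51.8 in X1 1dS, 237 ± 59.9 in X2 1dS, 205 ± 42.6 in Xins 30dS, 175 ± 47.5 in Xins 7dS and 142 ± 52.2 in Xins 1dS (SD, n = 4 each). Of the neighbours, X1 30dS and X2 7dS did not overlap.

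Between X2 and Xins, the major HSPD1 transcript was higher in X2 by 2.31 ± 0.42 at 1dS, 2.75 ± 0.40 at 7dS and 2.83 ± 0.40 at 30dS on the log2 scale, and was called each time, beside 10.7%, 9.55% and 11.1% of all transcripts. The minor one was called at 1dS (1.65 ± 0.43, adjusted p = 0.00465) and at 30dS (1.73 ± 0.42, adjusted p = 0.00390) and HSPA9 at 30dS (2.48 ± 0.62, adjusted p = 0.00464). These calls lay near the threshold. That of the minor transcript at 1dS was lost without replicate 2 or 4 of X2 1dS or replicate 1 or 3 of Xins 1dS (adjusted p 0.0137 to 0.0165), that at 30dS without any one of 5 of the 8 libraries (0.0108 to 0.0143), and that of HSPA9 without any one of 6 (0.0106 to 0.0158). DNAJA3 was 0.77 ± 0.29, 0.82 ± 0.24 and 0.59 ± 0.19 higher in X2 and was not called.

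Between X1 and X2, the values were higher in X1 for all 4 members at every time, and none passed on rescaled values without the block. The log2 differences at 1dS, 7dS and 30dS were 0.90, 0.83 and 0.66 for HSPA9, 0.80, 0.59 and 0.78 for the major HSPD1 transcript, 1.05, 1.13 and 1.16 for the minor one and 0.19, 0.69 and 0.58 for DNAJA3, with 3.33%, 5.34% and 5.51% of all transcripts called higher in X1. At 7dS and 30dS the replicate numbers were taken to pair the libraries of the 3 populations. That pairing rests on correlations in these same data and is not given by the labels. With the replicate number as a block, all 4 members passed at 7dS (adjusted p = 0.00104 for HSPA9, 0.000706 for the major HSPD1 transcript, 3.48e-05 for the minor one and 4.92e-05 for DNAJA3) and 3 at 30dS (0.00303 for the major HSPD1 transcript, 0.000231 for the minor one and 0.000197 for DNAJA3), and HSPA9 did not at 30dS (0.0288). In those blocked fits 14.6% of all transcripts at 7dS and 12.8% at 30dS were called higher in X1 than in X2. Other scalings gave calls without the block as well. With median-of-ratios scaling 5 of 12 passed, namely the minor HSPD1 transcript at every time and HSPA9 and the major HSPD1 transcript at 30dS, beside 8.43%, 9.64% and 16.3% of all transcripts at 1dS, 7dS and 30dS. Quantile normalization gave 2 calls, the minor HSPD1 transcript at 7dS and 30dS (beside 10.6% and 13.5%, and 6.74% at 1dS), and values as deposited gave these 2 and the major one at 30dS (beside 7.65% and 8.84%, and 4.52% at 1dS). Values as deposited were not scaled across populations, which limits that last setting.

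The block also brought every member past the threshold against Xins at these times. For X2 it added HSPA9, the minor HSPD1 transcript and DNAJA3 at 7dS (adjusted p = 4.26e-07, 4.18e-06 and 6.08e-06) and DNAJA3 at 30dS (adjusted p = 0.000123). The log2 differences were the same as without the block and only their errors were smaller. In the blocked fits 21.9% of all transcripts were called higher in X1 than in Xins at 7dS and 21.9% at 30dS, and 18.4% and 20.9% higher in X2 than in Xins.

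**Figure D4:**
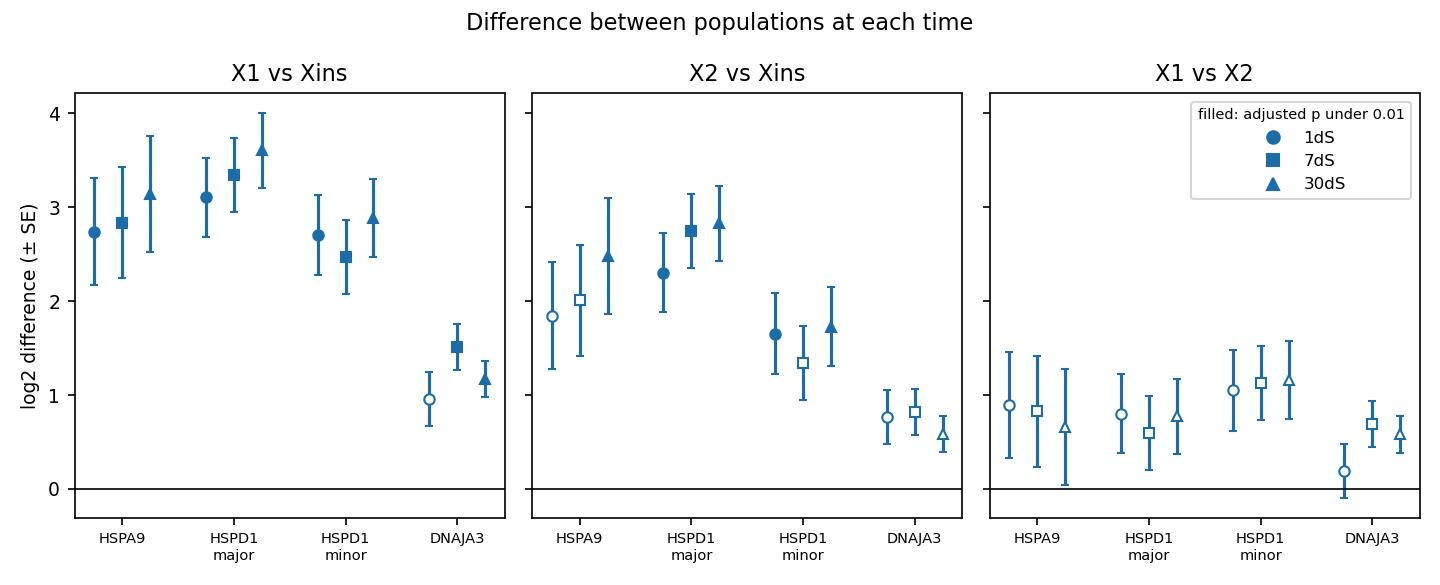
Log2 difference ± SE (limma, rescaled TPM) of each member between X1 and Xins, X2 and Xins, and X1 and X2 at 1dS, 7dS and 30dS, with filled points where the adjusted p was under 0.01. All points lie above 0, the differences between X1 and Xins reach 3.61 for the major HSPD1 transcript at 30dS, and no point between X1 and X2 is filled. These fits did not use the replicate number as a block.

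Whether starvation moved the members differently in the 3 populations was tested as the difference of changes, over all 36 libraries at equal totals. None of 24 tests passed by limma, and 0 had an unadjusted p under 0.05, the lowest being 0.121. Standard errors were 0.35 to 0.92 on the log2 scale. A difference has to be several times its standard error to pass, so differences well above these sizes could also be missed. The point with the lowest p was DNAJA3, whose change at 7dS was 0.56 ± 0.35 higher in X1 than in Xins. Among all transcripts, 1.66% passed at 7dS and 1.91% at 30dS for X1 minus Xins, 2.3% and 3.46% for X2 minus Xins, and 1.5% and 2.72% for X1 minus X2. The HSPD1 calls in one population and not in another are therefore not shown to differ between populations.

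Ratios between members in the same library do not depend on its scaling factor, and 4 were compared in 72 exact two-sided permutation tests. Of these exact tests, 20 gave p = 0.0286, the smallest possible, and their adjusted p over the 72 was 0.103, so that none passed 0.1. The minor HSPD1 transcript was at 1.69% to 1.88% of the major one in X1 at 1dS, at 1.46% to 1.62% at 7dS and at 1.20% to 1.61% at 30dS. In X2 it was at 1.27% to 1.61%, 0.857% to 1.10% and 0.873% to 1.17%, and in Xins at 1.49% to 2.31%, 2.05% to 2.24% and 1.57% to 1.73%. In X1 and X2 both later times lay wholly below 1dS (log2 difference -0.22 and -0.36 in X1, -0.56 and -0.53 in X2), and X1 lay wholly above X2 at each time. Reads shared between these 2 transcripts could have been split by the quantification, so the ratio is uncertain.

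The ratio of HSPD1 to TRiC separated populations. The major HSPD1 transcript was at 3.47 to 6.70 times the geometric mean of 8 TRiC subunits in X1, 2.47 to 4.96 times in X2 and 0.937 to 2.05 times in Xins. X1 and X2 lay wholly above Xins at every time. At 7dS and 30dS, X1 lay wholly above X2 as well. HSPA9 was at 0.586 to 1.02 times the major HSPD1 transcript in Xins at 7dS, against 0.348 to 0.580 times at 1dS, without overlap, while in the other comparisons of this ratio the groups overlapped. DNAJA3 ran from 0.204 to 1.29 times HSPA9 in X1, 0.137 to 1.78 times in X2 and 0.445 to 6.95 times in Xins, and within each of the 9 groups the 2 libraries of highest total had the higher ratios. The groups overlapped in every comparison of this ratio.

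**Figure D5:**
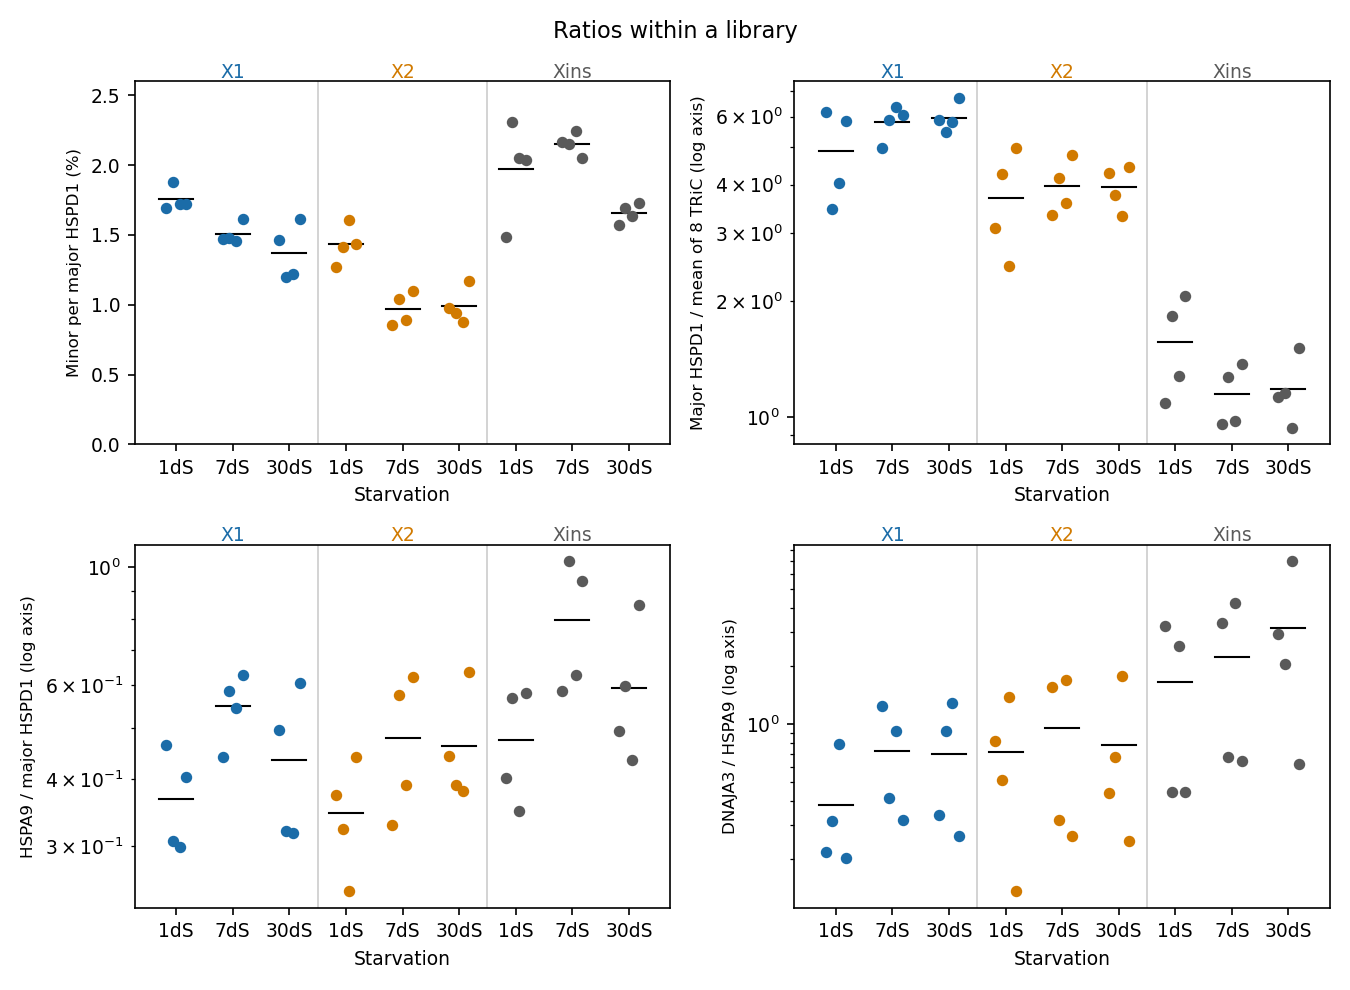
Within-library ratios by group, with points for libraries, of the minor over the major HSPD1 transcript (%), the major HSPD1 transcript over the geometric mean of 8 TRiC subunits, HSPA9 over the major HSPD1 transcript, and DNAJA3 over HSPA9. The HSPD1 to TRiC ratio is 3.47 to 6.70 in X1 and 0.937 to 2.05 in Xins, and the DNAJA3 to HSPA9 ratio spreads over 0.445 to 6.95 among Xins libraries.

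Another 2 transcripts carry a mitochondrial chaperone label in the study's tables. TRAP1 (dresden_comp1445_c0_seq1), the mitochondrial HSP90, followed the HSPD1 transcripts. In X1 it was at 257 ± 34.2 normalized TPM at 7dS, against 481 ± 109.7 at 1dS (SD, n = 4 each; log2 change -0.89 ± 0.21, limma adjusted p = 0.0259), and at 30dS its change of -0.55 ± 0.21 was not called (adjusted p = 0.146). It was also among transcripts the study listed as falling in these X1 libraries. In X2 it fell by 0.91 ± 0.20 at both times (adjusted p = 0.0198 at 7dS and 0.0141 at 30dS) and in Xins by 0.54 ± 0.13 and 0.44 ± 0.13 (adjusted p = 0.0482 and 0.0851), and these 5 calls too were lost at equal totals. It was higher in X1 than in Xins by 2.46, 1.91 and 2.22 on the log2 scale at 1dS, 7dS and 30dS.

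DNAJC27 (dresden_comp5753_c0_seq1), of a J-domain protein, ran opposite to the members between populations. Over time DNAJC27 ran opposite to both HSPD1 transcripts in X2, but fell in Xins as they did. It was near absent from X1, with a mean under 1 that left it out of the tests of time there, and averaged 3.46, 9.39 and 10.4 rescaled TPM in X2 and 58.1, 40.1 and 34.8 in Xins at 1dS, 7dS and 30dS. In X2 it rose by 0.88 ± 0.26 at 7dS and 0.96 ± 0.26 at 30dS (adjusted p = 0.0540 and 0.0306) and kept these calls at equal totals. In Xins it fell by 0.96 ± 0.26 and 1.02 ± 0.26 (adjusted p = 0.0773 and 0.0549), and lost both calls at equal totals. It was lower in X1 than in Xins by -5.14, -4.64 and -4.38 on the log2 scale.

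The mitochondrial tRNA synthetases, which charge tRNAs for translation inside the organelle, were taken by their annotation in the study's tables, with earlier results of these data known, and all 12 were tested. In X1 at 7dS 4 of 12 fell and none rose, among them NARS2 (-0.99 ± 0.24), VARS2 (-0.64 ± 0.15) and SARS2 (-0.45 ± 0.13), and the median of the list was -0.39, beside 0.04 over all transcripts. At 30dS 3 of 12 fell (median -0.51), and in X2 4 of 12 fell at 7dS (median -0.61) and 4 at 30dS (median -0.64), led by Yars2 (-1.33 ± 0.39 and -1.35 ± 0.39). In Xins 1 of 12 fell at 7dS, NARS2 (-0.55 ± 0.15), and 0 at 30dS, with medians of -0.21 and -0.30. These counts are on the deposited scale. Of all transcripts, 6.92% and 4.36% were called lower in X1 at 7dS and 30dS, 6.79% and 8.19% in X2, and 3.06% and 3.85% in Xins. At equal totals 0 of 12 passed in X1 at 7dS (median -0.19) and 0 at 30dS (median -0.38), 1 of 12 passed as lower at each later time in X2 (medians -0.21), and the median in Xins turned to 0.14 at 7dS. On that scale 362 of 15321 transcripts at 7dS and 413 at 30dS were called lower in X2. Between X1 and Xins 9 of 12 synthetases were higher at 1dS, 4 at 7dS and 5 at 30dS, beside 16%, 14.3% and 15.3% of all transcripts.

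The chaperones of the cytosol and the ER were picked by the study partly from transcripts that changed in the X1 libraries used here, so their direction there is not independent evidence. In X1 at 7dS 7 of 8 TRiC subunits fell (by 0.68 to 1.62 on the log2 scale, median of the list -1.17). Of the cytosolic HSP70 transcripts 4 of 6 tested fell (median -1.46), of the cytosolic HSP40 transcripts 5 of 8 fell and 1 rose (median -0.76), and of the ER HSP70 transcripts 2 of 2 tested fell (median -0.88). At 30dS in X1 fewer passed, with 2 of 8 TRiC subunits lower (median -0.73), 4 of 6 cytosolic HSP70 transcripts lower and 1 higher (median -1.19), 2 of 8 cytosolic HSP40 transcripts lower and 1 higher (median -0.53), and 1 of 2 ER HSP70 transcripts lower (median -0.83). Beside these counts in X1, 6.92% of all transcripts were called lower and 6.77% higher at 7dS, and 4.36% lower and 5.43% higher at 30dS. In Xins at 7dS, which the choice did not use, 5 of 8 TRiC subunits fell (median -0.92), beside 3.06% of all transcripts. Same-numbered X1 and Xins libraries deviated together at 7dS (r 0.536 to 0.69), so Xins is not fully independent evidence either. At equal totals 5 of 8 TRiC subunits passed as lower in X1 at 7dS (median -0.95) and 1 of 8 in Xins (median -0.50), and in X1 the cytosolic HSP70 transcripts had 3 such calls, the cytosolic HSP40 transcripts 2 and the ER HSP70 transcripts 0. On that scale 282 of 13459 transcripts in X1 and 103 of 17327 in Xins were called lower at 7dS.

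Over the 9 group means of log2(rescaled TPM + 1), the transcripts with a symbol most like HSPA9 were KARS (r = 0.993), HSPA8 (0.991) and cct1A (0.986), and those most like the major HSPD1 transcript were cct1A (0.994), TRAP1 (0.987) and KARS (0.986). The minor HSPD1 transcript was most like EIF2B2 (0.992), VARS2 (0.981) and TRAP1 (0.974). DNAJA3 was most like PPIH (0.930), DDX3X (0.926) and HSP90AA1 (0.911), with 177 transcripts having a higher r than PPIH, whereas 5 did for cct1A with the major HSPD1 transcript. HSPA9 and the major HSPD1 transcript had r = 0.983 with each other, and HSPA9 and DNAJA3 had r = 0.837. These values describe 9 means that share libraries and the large step between populations, among 7979 transcripts with a mean of at least 10, of which 129 had a symbol.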

How the data were processed

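X1, X2 and Xins cells of planarians were collected by FACS and their RNA was sequenced as single-end libraries of 51 cycles. Per the paper's methods, the authors removed ribosomal reads with Bowtie2, estimated TPM with kallisto 0.43.0 on version 4 of the Dresden transcriptome (fragment length 200, SD 20) and normalized them in Sleuth. The deposited value, a signal in normalized TPM, is given for 26558 transcripts in each of 3 tables, 1 per population with 12 libraries each. It is not counts and keeps no depth, so counting error and read depth are unknown here and precision rests on 4 replicates per group. Symbols came from the study's tables.

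Times were compared within a population by limma 3.58.1 (R 4.3.3, trend) on log2(normalized TPM + 1), keeping transcripts whose mean reached 1, at an adjusted p under 0.1. Populations (adjusted p under 0.01) and differences of changes (under 0.1) used libraries rescaled to a total of 1000000. Single values and ratios had exact two-sided permutation tests over 70 arrangements (scipy 1.17.1). P-values were adjusted by Benjamini-Hochberg over all transcripts, or over the 72 ratio tests. The fits were tested on simulated data. The 4 members are described in every comparison. Beside them stand the study's other mitochondrial chaperones, its 12 mitochondrial tRNA synthetases, and its TRiC, cytosolic HSP70, cytosolic HSP40 and ER HSP70 lists, with values for those past the threshold, and the 3 most alike transcripts with a symbol. Members and lists were chosen with earlier results of these data known.

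Same-numbered libraries were taken to deviate together from their group means where all 4 numbers had r over 0.1. This held between all pairs of populations at 7dS (r 0.471 to 0.839) and 30dS (0.188 to 0.839) but not at 1dS (-0.243 to 0.711). Between times it held for Xins 1dS and 7dS (0.44 to 0.704), Xins 7dS and 30dS (0.361 to 0.904) and X1 7dS and 30dS (0.134 to 0.8). The other pairs of times fell short of it. In X1 1dS and 30dS (0.0461 to 0.649) and X2 7dS and 30dS (0.00494 to 0.893), 3 of 4 exceeded 0.1, so a link there remains uncertain. The labels do not say what a number marks, so this pairing comes from the data. Between Xins 1dS and 7dS it is uncertain, since only 1 of 4 libraries at 1dS correlated best with its own number. This count was 4 of 4 between Xins 7dS and 30dS and 3 of 4 between X1 7dS and 30dS. It was also 3 of 4 between X1 1dS and 30dS and between X2 7dS and 30dS. Alternatives were other pseudocounts, filters and scalings, the replicate block, the 2 groups alone and leaving out each library.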

Additional observations from a re-analysis of the deposited data

Results flagged for a closer look

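In 4 of 108 groups of 4 values, 1 library lay far from the other 3 by Dixon's test of the gap to the nearest, and chance gives about 1 such group in 20. DNAJA3 in X1 at 1dS was at 343.5 rescaled TPM in its highest library, and the others were at 232.1 to 247.3. The major HSPD1 transcript in X2 at 30dS was at 665 normalized TPM in its lowest library, and the others were at 1083 to 1159. The log2 ratio of the minor to the major HSPD1 transcript was -5.731 in the highest library of X1 at 1dS, beside -5.884 to -5.86 in the others, and -5.951 in the highest library of X1 at 7dS, beside -6.101 to -6.083 in the others.

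No member changed differently between populations by the test of that difference, but 2 other transcripts that the study's tables label as mitochondrial did. The change of DNAJC27 from 1dS to 7dS was 1.775 higher in X2 than in Xins on the log2 scale (limma adjusted p = 0.000875) and differed by -1.275 in X1 minus X2 (adjusted p = 0.0276). From 1dS to 30dS these differences were 2.109 (adjusted p = 6.02e-05) and -1.342 (adjusted p = 0.0124). In X1 DNAJC27 was close to 1 rescaled TPM or under it, so that its change there was small on any scale. FARS2, the mitochondrial phenylalanyl-tRNA synthetase, averaged 28.7 ± 2.67 rescaled TPM at 7dS and 41.1 ± 10.5 at 1dS in X1, and 34.7 ± 4.29 at 7dS and 27 ± 4.01 at 1dS in Xins (SD, n = 4 each). The difference of these changes, X1 minus Xins, was -0.8265 (adjusted p = 0.0993).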

How the results depend on the processing

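Of the 36 time comparisons of members, 2 passed with libraries rescaled to equal totals, against 10 as deposited, and 7 to 13 passed under the other alternatives (7 with quantile normalization, 9 without the filter, 8 with a mean of at least 5, under which the minor HSPD1 transcript was not tested in Xins, 7 with the 2 groups alone and 9 to 10 with a library left out). Quantile normalization kept both DNAJA3 calls in X1 that equal totals gave. It lost every call of the major HSPD1 transcript, and that of the minor one in X1 at 30dS. In the population comparisons 31 of 36 passed with the replicate block, against 17, and 15 to 25 under the other alternatives (15 to 19 with a library left out). Between times the replicate block gave 13 calls, adding the major HSPD1 transcript in X2 at 30dS and HSPA9 in Xins at 7dS and 30dS, beside 17%, 14.1% and 13.2% of all transcripts called lower in those fits, and it turned no direction. At 1dS, where the numbers did not pair the populations, it gave 8 calls against 5, beside 19.5% of all transcripts higher in X1 and 14.8% higher in X2 than in Xins, against 16% and 10.7%. No difference of changes passed under any alternative. Of the 72 ratio tests 21 passed with a pseudocount of 1 in both terms, against 0, because more of them then reached the smallest p. The cause of the changes with scaling was not tested. NARS2, a mitochondrial tRNA synthetase, reversed between X2 and Xins under quantile normalization, to 0.7421 at 7dS and 0.6004 at 30dS, against -0.26 and -0.13 without a call on the rescaled values. TPM keep no depth, so the precision of the lowest values, those of the minor HSPD1 transcript in Xins, is not known.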
